A study of Mus musculus with 7 samples.

Results

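The regions described here were Srsf3 eCLIP peaks of genes that had a peak in the list called after PDGF-AA stimulation and none in the list called without ligand. They were chosen from the deposited full lists, as the distinct intervals of the PDGF-AA list whose gene had no row in the untreated list. This gave 2312 of the 8384 peaks of the PDGF-AA list, in 1783 of its 4491 genes, or 33.2% of the 5368 genes bound in either list. Since the choice used the presence or absence of peaks in both lists, the gain itself is a description of the rule and was not tested. The remaining 6072 PDGF-AA peaks lay in 2708 genes that were bound in both lists. Untreated peaks of the same 2708 genes numbered 5339, and 1057 further untreated peaks belonged to 877 genes with no PDGF-AA peak.

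All libraries were made from iMEPM cells, which are palatal mesenchyme cells of the mouse embryo grown as an immortalized line. The treated group received 10 ng/mL PDGF-AA for 1 hour, and the untreated group received no ligand. By the methods, cells were serum starved before the ligand was added and were crosslinked with ultraviolet light afterwards. The PDGF-AA Srsf3 immunoprecipitation was represented by 1 library and the untreated Srsf3 immunoprecipitation by 2 libraries, all made with the Srsf3 antibody ab73891, beside 1 input and 1 IgG library of each condition. These 7 libraries share a single line, and separate cultures are not stated for the untreated pair, although the methods call the eCLIP replicates biological. Each condition has 1 peak list, and differences between lists therefore could not be set against replicate error. The lists give intervals with a gene and a gene type but no score, height or read count, so the depth behind each peak is unknown, and a gene missing from a list cannot be called unbound. By the study's read counts, the PDGF-AA Srsf3 library had more mapped reads than either untreated Srsf3 library, and more than the pair together. Transcript abundance was not measured in these lists, and from them more Srsf3 per transcript and more copies of the transcript cannot be told apart. The study's separate RNA-seq, in lines derived from these cells, reported little change in gene expression after 1 hour of ligand, with immediate early genes among those that rose. Those data were not used here, and the part of transcript abundance was not tested.

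Srsf3 is a small serine/arginine-rich (SR) protein that binds RNA through an RNA recognition motif and acts in exon recognition, alternative splicing, polyadenylation and mRNA export. In eCLIP, RNA crosslinked to a protein by ultraviolet light is pulled down with an antibody, and stretches with more reads than a background are called as peaks. PDGF-AA activates PDGFRα, a receptor tyrosine kinase of the palatal mesenchyme that signals to a large extent through phosphatidylinositol 3-kinase (PI3K) and Akt, a kinase that can act on SR proteins and on the kinases of SR proteins.

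Hexamers made of G and A were the most frequent of the motifs searched in these peaks. They were AGAAGA, the same repeat read from its next base (GAAGAA) and the same read from the base before (AAGAAG), which overlap each other in longer repeats and are together called GA hexamers here. The hexamer GAAGCG and, as a CA-rich motif, CACACA were searched as well, all on the transcript strand alone. All of these hexamers were among the most enriched motifs that the study reported for the peaks of these same conditions. Their frequency here is therefore a description of the lists and not an independent result. An intron peak and a coding peak from among the 5 with the most copies of a GA hexamer are shown first, because they show the motif in its longest form, with the GA hexamers in capitals. Coordinates are those of the deposited lists on GRCm39, and 339 peak edges lay exactly 1 nt after an edge of an internal exon in genome coordinates while 8 lay on it, so the intervals appear to be displaced by 1 nt.
Nhsl2 intron, chrX:100896578-100896649, plus strand: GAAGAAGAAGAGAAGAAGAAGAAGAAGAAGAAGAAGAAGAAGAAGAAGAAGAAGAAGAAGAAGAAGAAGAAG
Knop1 coding sequence, chr7:118451653-118451763, minus strand: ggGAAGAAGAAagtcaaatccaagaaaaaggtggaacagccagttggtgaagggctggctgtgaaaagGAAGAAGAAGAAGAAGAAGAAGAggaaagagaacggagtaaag

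The peak in Nhsl2, on the X chromosome, was 72 nt wide and held 63 overlapping GA hexamers, in a run of purines along its whole length. Knop1, which encodes a lysine-rich nucleolar protein, had its peak of 111 nt in exon 2 of 5, with 22 copies at 59.3% of the way through the coding sequence. Of the other peaks with the most copies, that of AW554918 was in an intron and held 61, and that of Emp2, a tetraspan membrane protein gene, was in the 3′ UTR and held 53. Such long purine tracts were rare. A run of at least 30 purines was present in 37 of the 2312 peaks (1.60%), and 16 of these lay in introns and 16 in coding sequence.

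Other peaks held fewer copies, inside coding exons. The following were the peaks richest in GA hexamers among the 20 genes with the most peaks, chosen after their values were seen because they show the motif inside ordinary coding sequence.
Chd4 coding sequence, chr6:125077851-125077944, plus strand: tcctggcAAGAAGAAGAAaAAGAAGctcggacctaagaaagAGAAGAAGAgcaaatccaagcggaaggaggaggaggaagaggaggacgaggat
Nap1l1 coding sequence, chr10:111331187-111331218, plus strand: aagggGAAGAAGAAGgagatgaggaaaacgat
Nomo1 coding sequence, chr7:45715696-45715725, plus strand: AGAAGAAtggcaAAGAAGAgggcGAAGAAG

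The Chd4 peak held 11 copies in exon 4 of 39, the Nap1l1 peak 5 copies in exon 14 of 15, and the Nomo1 peak 6 copies in exon 20 of 32. Of the 5 widest peaks, 4 lay in coding sequence, and these held 1 copy each. They are shown next because they give the longest coding stretches under single peaks. Most of the regions were narrower than the rest of the PDGF-AA list.
Ddit3 coding sequence, chr10:127131715-127131884, plus strand: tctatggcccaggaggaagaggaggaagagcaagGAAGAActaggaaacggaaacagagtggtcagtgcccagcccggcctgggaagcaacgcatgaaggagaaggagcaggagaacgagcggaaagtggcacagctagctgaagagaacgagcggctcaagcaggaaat
Golim4 coding sequence, chr3:75802209-75802345, minus strand: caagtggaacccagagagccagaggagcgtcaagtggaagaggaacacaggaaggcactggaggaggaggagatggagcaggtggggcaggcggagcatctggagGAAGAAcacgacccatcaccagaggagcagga
Pcbp1 coding sequence, chr6:86502709-86502843, minus strand: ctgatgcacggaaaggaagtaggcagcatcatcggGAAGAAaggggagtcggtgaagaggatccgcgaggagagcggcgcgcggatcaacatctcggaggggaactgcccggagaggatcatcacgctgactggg
Arpc5 coding sequence, chr1:152642465-152642598, plus strand: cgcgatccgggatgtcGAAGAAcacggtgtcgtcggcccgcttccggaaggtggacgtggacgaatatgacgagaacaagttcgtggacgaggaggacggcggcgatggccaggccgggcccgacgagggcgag

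Ddit3, which encodes the stress-responsive transcription factor CHOP, had the widest peak, 170 nt in its last exon. Golim4 encodes a Golgi membrane protein, Pcbp1 an hnRNP that binds poly(C) RNA, and Arpc5 a subunit of the Arp2/3 actin nucleator, and their peaks measured 137, 135 and 134 nt. The peak of Cluap1, a gene of intraflagellar transport, measured 152 nt. It lay in the 3′ UTR of a transcript other than the one with the longest coding sequence. These were far from typical, as the median width was 40 nt and the middle 50% of the peaks lay between 29 and 55 nt. PDGF-AA peaks of genes bound in both lists had a median width of 53 nt, and the untreated peaks had one of 50 nt in the genes bound in both lists and 41 nt in the genes of the untreated list alone. Peaks of 60 nt or more made up 19.1% of the regions (442 of 2312, 95% Wilson interval 17.6 to 20.8), against 40.6% of the PDGF-AA peaks of genes bound in both lists (39.3 to 41.8). These intervals, here and throughout, cover counting error only.

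Most genes carried a single peak. One peak was called in 1373 of the 1783 genes (77.0%), 2 peaks in 318, 3 in 70, 4 in 17 and 5 in 5. Of the 2708 genes bound in both lists, 1225 (45.2%) had 1 PDGF-AA peak, and 223 had 5 or more. The mean was 1.30 PDGF-AA peaks per gene, against 2.24 in the genes bound in both lists and 1.21 untreated peaks per gene in the genes of the untreated list alone. The rule is sensitive to this low number. Just inside it were the 1373 genes with 1 PDGF-AA peak and no untreated peak, and just outside it were 1478 genes that had exactly 1 untreated peak. Of those 1478 genes, 892 also had 1 PDGF-AA peak and 213 had 3 or more, led by Inppl1 and Tcf7l2 with 7 PDGF-AA peaks each. No region overlapped an untreated interval, and 3 lay within 1000 nt of one on the same strand, in Nop53 (649 nt away), Mir8094 (773 nt) and Lama5 (943 nt). The rule largely fixes this, since a region could meet an untreated peak only where that peak was listed under another gene. In the genes bound in both lists, where the rule sets no such limit, 40.9% of the PDGF-AA peaks overlapped an untreated peak by at least 1 nt.

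Nearly all of these regions belonged to protein-coding genes (2296 of 2312), and the other 16 belonged to pseudogenes, miRNA genes and loci of unsettled type. The genes were smaller than those bound in both lists. Their median coding length was 1588 nt (n = 1764 genes with a coding transcript), against 2154 nt in the genes bound in both lists, and their median exon number was 11 against 14. A coding length over 3000 nt was found in 17.4% of them, against 31.2%. Genes of the untreated list alone were similar in this respect, with a median coding length of 1546 nt and 11 exons. The gene span differed between these groups, with a median of 28423 nt in the genes bound only after PDGF-AA and 45778 nt in those of the untreated list alone. In the genes bound in both lists the median span was 46264 nt. Genes with 1 coding exon made up 5.16% of the genes bound only after PDGF-AA (91 of 1764, 4.22 to 6.29), against 2.46% of the genes bound in both lists (1.94 to 3.11).

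The peaks lay in coding sequence about as often as the rest of the PDGF-AA list, and less often in introns. Of 2292 peaks in protein-coding genes that could be placed in the annotation, 1889 (82.4%, 80.8 to 83.9) were in coding sequence, against 81.7% (80.7 to 82.6) of the PDGF-AA peaks of genes bound in both lists. Introns held 191 of them (8.33%, 7.27 to 9.54), against 13.3% (12.5 to 14.2) in the genes bound in both lists. Of the untreated peaks of genes bound in both lists, 59.1% (57.7 to 60.4) were in coding sequence and 32.9% (31.6 to 34.2) in introns, and of those of genes bound only in the untreated list, 32.5% were in coding sequence and 53.9% in introns. A peak was assigned to the region that held most of its nucleotides, with coding sequence taking precedence where transcripts of a gene differed. In another count, any nucleotide in a UTR of any annotated transcript placed the peak in that UTR, whatever held most of it. Only 29.97% of the regions then counted as coding sequence and 54.7% as 3′ UTR, against 34.8% and 47.1% for the PDGF-AA peaks of genes bound in both lists.

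**Figure D1:**
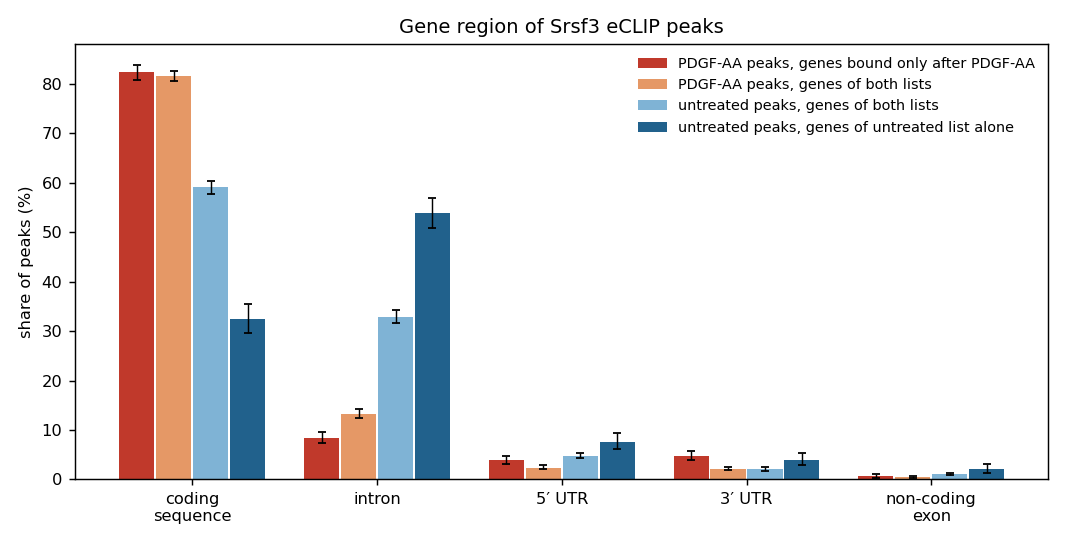
Share of peaks (%) in each gene region for the 4 groups of peaks in protein-coding genes, with bars for the share and lines for the 95% Wilson interval (counting error only). Coding sequence held 82.4% of the peaks of genes bound only after PDGF-AA and 81.7% of the other PDGF-AA peaks, against 59.1% of the untreated peaks of genes bound in both lists and 32.5% of the peaks of genes of the untreated list alone.

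The 2 kinds of UTR were slightly more frequent here than in the other PDGF-AA peaks. The 3′ UTR held 108 regions (4.71%, 3.92 to 5.66), against 2.18% (1.84 to 2.58) in the genes bound in both lists. The 5′ UTR held 90 (3.93%, 3.21 to 4.80), against 2.40% (2.04 to 2.82). Peaks in 5′ UTRs were narrower, with a median of 33 nt, and richer in G and C, with a median GC content of 65.1%. Peaks in introns were wider, with a median of 48 nt, and had a median GC content of 52.2%, and peaks in coding sequence had a median of 40 nt and 57.1%. The intron peaks lay a median of 1936 nt from the nearest annotated exon of their gene, and 19 of 192 (9.90%, 6.43 to 14.9) were within 100 nt of one. For the intron PDGF-AA peaks of genes bound in both lists the median distance was 5003 nt, and 3.78% (2.66 to 5.34) were within 100 nt. The untreated intron peaks were nearer to the regions described here. They had 2716 nt and 11.3% (9.90 to 12.9) in the genes bound in both lists. In the genes of the untreated list alone they had 1997 nt and 12.9% (10.3 to 15.9).

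Along the longest coding sequence of each gene the peaks were spread nearly evenly. The median position was 48.3% of the way from the start to the stop codon (n = 1875), or 55.4% when averaged over all coding transcripts. From start to end, 4 equal parts of the coding sequence held 24.7%, 27.3%, 25.4% and 22.5% of the peaks. The intervals of the second part (25.3 to 29.4) and the last (20.7 to 24.5) did not overlap. Internal coding exons held 71.8% of them, the first coding exon 11.8%, the last coding exon 11.8% and the only coding exon of a gene 4.64% (3.78 to 5.69). The only coding exon held 1.83% (1.48 to 2.24) of the coding peaks in the PDGF-AA list of genes bound in both lists. Of those same peaks, the last coding exon held 9.67% (8.87 to 10.5) and the first 9.3% (8.51 to 10.1). In the genes of the untreated list alone, the last coding exon held 6 of 325 coding peaks (1.85%, 0.849 to 3.97) and the first 20.6%, and for the untreated peaks of genes bound in both lists these shares were 7.34% and 11.1%.

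Within internal exons the peaks lay further from the downstream edge than those of the untreated list. Their centres lay a median of 62.0 nt from the exon end and 87.0 nt from the exon start (n = 1431), close to the 60.5 and 86.0 nt of the other PDGF-AA peaks. Among untreated peaks the distance to the exon end was 34 nt for the genes bound in both lists and 24.5 nt for the genes bound only there. A centre within 30 nt of the exon end was found for 23.1% of the regions (21.0 to 25.4), against 43.8% (41.9 to 45.8) of the untreated peaks of genes bound in both lists and 60.6% (54.6 to 66.3) of the peaks of genes of the untreated list alone. Only 22 of 1431 regions (1.54%) ran over an exon edge by more than 1 nt, against 301 of 2537 (11.9%) and 55 of 264 (20.8%) in the same 2 groups. The internal exons bound only after PDGF-AA had a median length of 157 nt and a median GC content of 53.9% (n = 1343 exons), against 146 nt and 54.9% in the PDGF-AA list of genes bound in both lists, and 134 nt and 55.7% in the untreated list of genes bound only there.

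**Figure D2:**
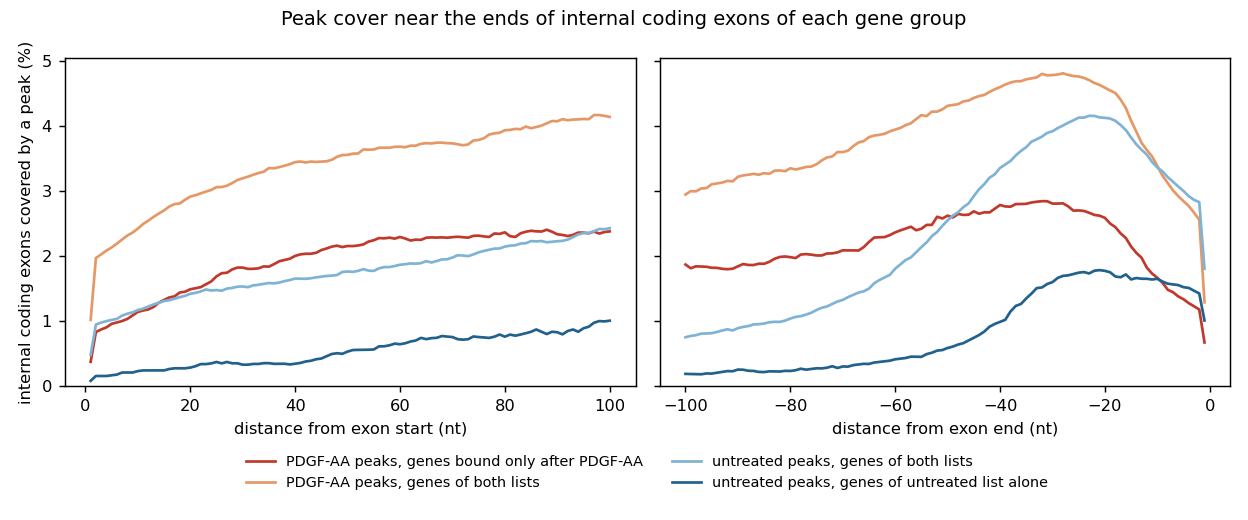
Share of internal coding exons (%) covered by a peak at each distance (nt) from the exon start, left, and from the exon end, right, over the internal coding exons of the genes of each group. In genes bound only after PDGF-AA the cover was highest 32 nt before the exon end, at 2.84%, and was still 1.87% at 100 nt, whereas the untreated peaks of genes bound in both lists had their highest cover at 23 nt, at 4.15%, and 0.754% at 100 nt, and those of genes of the untreated list alone had 1.78% at 21 nt and 0.192% at 100 nt. The other PDGF-AA peaks had their highest cover at 28 nt, at 4.80%, and 2.94% at 100 nt.

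GA hexamers were present in 685 of the 2312 regions (29.6%, 27.8 to 31.5), and CACACA, the core of the CA-rich sites for which Srsf3 is known, in 27 (1.17%, 0.804 to 1.69). The corresponding shares were 33.8% and 3.31% in the PDGF-AA peaks of genes bound in both lists. Among untreated peaks they were 20.2% and 18.1% in the genes bound in both lists, and 6.72% and 29.0% in the genes of the untreated list alone. A tandem CA run of at least 12 nt was found in 4 regions, against 95 of 6072 PDGF-AA peaks and 810 of 5339 untreated peaks of genes bound in both lists, and 274 of 1057 peaks of the genes of the untreated list alone. The difference in GA hexamers from the other PDGF-AA peaks went with the width of the peaks. In windows of 50 nt around the peak centres, the shares were 29.5% (27.6 to 31.3) and 29.8% (28.7 to 31.0). By gene region, GA hexamers were found in 30.4% of the coding peaks, 34.4% of the intron peaks, 22.2% of the 3′ UTR peaks and 15.6% of the 5′ UTR peaks. CACACA was rare in the coding peaks of every group, at 0.953% here and 1.46% in the other PDGF-AA peaks. For untreated coding peaks it was 1.65% in the genes bound in both lists and 2.10% in those of the untreated list alone. In introns the shares were 3.65%, 14.0%, 50.4% and 49.8% in the same order.

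The motif was denser in the coding peaks than in the rest of the same coding sequences. Since the hexamers were those the study reported for these peaks, the ratios describe the peaks and are no independent result. AGAAGA occurred 6.28 times per kb in the 1889 coding peaks, against 1.29 times per kb in the coding sequence of the same genes outside all peaks, a ratio of 4.88. The ratio was 4.38 for GAAGAA, 4.51 for AAGAAG and 3.49 for GAAGCG, while CACACA was less dense in the peaks, with a ratio of 0.703. For the PDGF-AA coding peaks of genes bound in both lists the ratios were 4.68, 4.42, 4.61, 3.47 and 0.754 in the same order, and for the untreated coding peaks of those genes they were 4.40, 4.09, 4.27, 3.01 and 0.957. Over stretches of equal length, 30.5% of the windows of 50 nt around coding peaks held a GA hexamer (28.5 to 32.6), against 9.92% of 49986 adjoining stretches of 50 nt from the rest of those coding sequences. The untreated coding peaks of genes bound in both lists had a GA hexamer in 24.4% of their windows (22.9 to 25.9), against 9.30% of the rest of their coding sequences. The coding peaks of genes of the untreated list alone had one in 16.8% (13.2 to 21.2), against 8.85% of the rest of their coding sequences. Base composition also differed, with a median GC content of 57.1% in the coding peaks and 52.0% in the other stretches, and its part in the motif shares was not tested. GAAGCG was held by 3.39% of the coding windows and 1.11% of the other stretches, and CACACA by 1.27% and 1.52%.

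**Figure D3:**
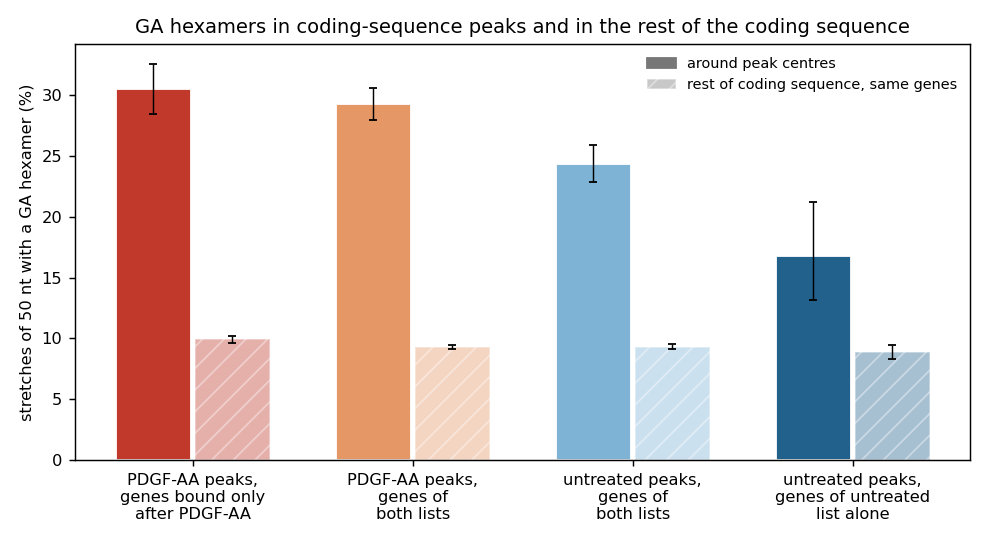
Share of stretches of 50 nt (%) that hold a GA hexamer, around the centres of coding peaks (solid bars) and in the rest of the coding sequence of the same genes (hatched bars), with 95% Wilson intervals as lines (counting error only). The share around peaks was 30.5% in genes bound only after PDGF-AA and 29.3% in the other PDGF-AA peaks, against 24.4% in the untreated peaks of genes bound in both lists and 16.8% in genes of the untreated list alone, and the rest of the coding sequence lay between 8.85% and 9.92%.

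The genes with the most peaks were Chd6, Kif26b, Clip2, Phactr4 and Rptor, with 5 each. Chd6, a chromodomain helicase that remodels nucleosomes, had all 5 in coding sequence, and each held a GA hexamer. Of these, 3 lay within exon 3 of 37, at chr2:160894309-160894339, chr2:160894346-160894376 and chr2:160894400-160894469 on the minus strand. The others were in exon 4 (59 nt) and exon 31 (75 nt). With intervals within 50 nt of each other joined, Chd6 had 3 peaks.

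Kif26b, an atypical kinesin, had 2 coding peaks in exon 12 of 15, a coding exon of 3415 nt, and 3 intron peaks that overlapped or lay within a few bases of each other. Clip2, a microtubule plus-end linker, had 2 peaks in exon 10 and 2 in exon 8, a short exon of 61 nt. One of those in exon 8 held 4 GA hexamers in 30 nt. Phactr4, a regulator of protein phosphatase 1 and actin, had 4 coding peaks. It had 1 more in the 5′ UTR of a transcript other than the one with the longest coding sequence. Rptor, which encodes the scaffold of the mTORC1 kinase complex, had 4 coding peaks in exons 1, 2, 4 and 8 of 34, all in the first 24.4% of its coding sequence, and 1 intron peak. None of its 5 peaks held a GA hexamer, and all 5 stayed apart when close intervals were joined.

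A further 17 genes had 4 peaks, and 14 of the 15 with the most covered nucleotides are described here. Wars (244 nt), a tryptophan tRNA synthetase, had its widest peak, of 112 nt, in exon 8 of 11. Chd4 (233 nt), the remodeling helicase of the NuRD complex, had peaks in exons 4, 14, 34 and 35, and 3 of these held GA hexamers. Rsrc2 (183 nt), a gene for an arginine/serine-rich coiled-coil protein, had 1 peak in each of exons 2 to 5. Nap1l1 (163 nt), a histone chaperone, had 4 coding peaks that all held GA hexamers, and 1 of them was as wide as its exon of 30 nt. Snrnp200 (125 nt), the helicase that unwinds U4/U6 in the spliceosome, and Puf60 (127 nt), a factor in 3′ splice site recognition, had 4 coding peaks each. Nup98 (118 nt), a nuclear pore protein, had 3 of its 4 peaks in exon 20, and these were separated by 1 or 2 bases, so that joining left 2.

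The other genes of this set were Zfp629, Pdxdc1, Mga, Specc1l, Mtus1, Trim47 and Nomo1. Zfp629, a zinc finger gene, had its 4 peaks in a single exon, and Mga, a transcription factor that pairs with Max, had 2 of 4 in exon 17. Mtus1, a microtubule-associated tumor suppressor gene, had 2 of its 4 peaks in its 5′ UTR, both in exon 6 of 18. Specc1l encodes a cytoskeletal crosslinking protein, mutated in human facial clefting, and its 4 peaks were in exons 6, 7, 14 and 15. Across all genes with at least 2 coding peaks, 125 of 324 (38.6%, 33.4 to 44.0) had 2 or more in one exon. Joining close intervals lowered the number of genes with several peaks to 331, against 410 as deposited.

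**Figure D4:**
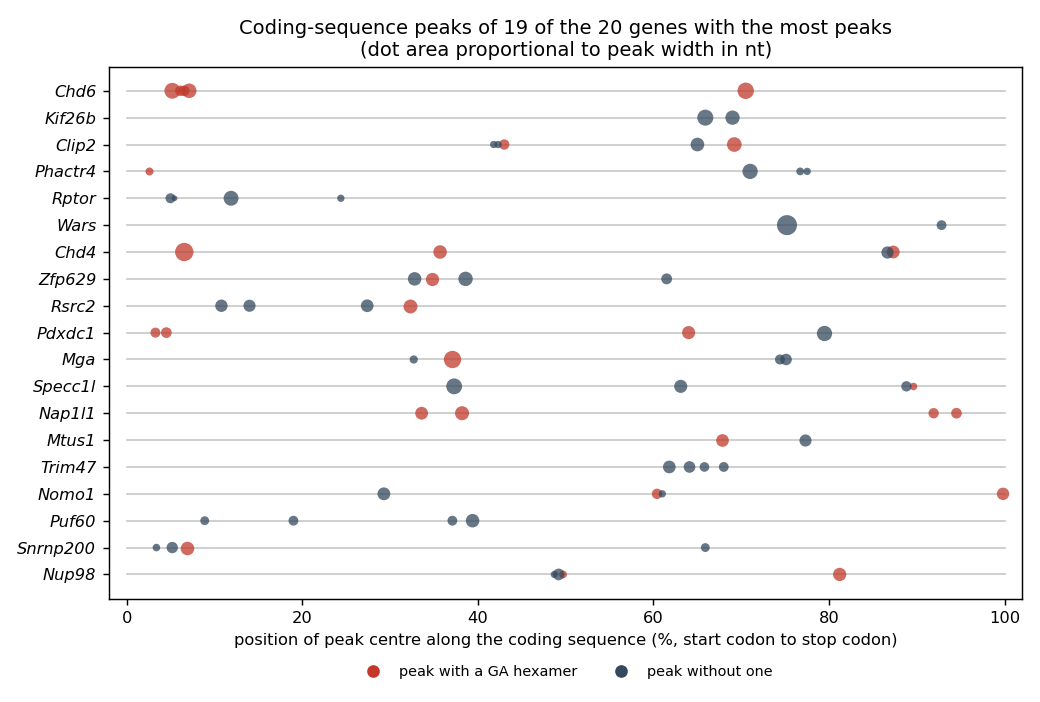
Position of each coding peak (centre, % of the way along the coding sequence) for 19 of the 20 genes with the most peaks, ordered by peak number and then by covered nucleotides, with dot area in proportion to peak width in nt and color for the presence of a GA hexamer. All 5 peaks of Chd6 and all 4 of Nap1l1 held the motif, and the 4 coding peaks of Rptor lay in the first 24.4% of the coding sequence and held none.

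Bound genes were next grouped by function. Of all 5368 genes bound in either list, 1783 (33.2%) were bound only after PDGF-AA, and each group was read against this share. Over the 19 functional groups together it was 28.0% (232 of 830). The groups were chosen with earlier results of these data known, and no set test was made. The share also moved with the number of peaks, as it was 17.2% (410 of 2377) over all genes with at least 2 peaks in a list.

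The genes of DNA replication and repair had the highest share. Of 39 that were bound, 21 (53.8%, 38.6 to 68.4) were bound only after PDGF-AA, 8 were shared by the lists and 10 were bound in the untreated list alone. Lig1, the ligase that joins Okazaki fragments, had 3 coding peaks, 2 of them in exon 3 with GA hexamers. Rfc1, the large subunit of the clamp loader, Polq, an end-joining polymerase, Rev1, a translesion polymerase, Mcm6, a subunit of the replicative helicase, and Rad50, of the double-strand break complex, had 2 each. At a minimum of 2 peaks in a list the share was 50% (6 of 12). Genes of the centrosome and mitosis had 24 of 55 (43.6%, 31.4 to 56.7), an interval that includes the background. Cep350 (181 nt), a centrosome protein gene, had 3 coding peaks, in exons 10, 31 and 34 of 38, and Cep170b and Ninl also had 3. Aurkb, Bub3, Kif11 and Prc1, genes of the spindle and its checkpoint, had 1 each.

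In the PI3K, Akt and mTOR group, 16 of 33 bound genes (48.5%, 32.5 to 64.8) were bound only after PDGF-AA, and the interval includes the background. Besides Rptor, the kinase gene Mtor had 2 coding peaks, in exon 24 and exon 40 of 59, and the peak in exon 40 held 6 GA hexamers. Gsk3b, a kinase that Akt inhibits, had 1 peak in its 5′ UTR and 1 at the start of its coding sequence with 2 GA hexamers. The PI3K subunit genes Pik3ca, Pik3cb, Pik3r1 and Pik3r2 had 1 peak each, in an intron for Pik3ca and in exon 15 of 16 for Pik3r1. Foxo1, Ulk1, Becn1, Phlpp2 and Depdc5 also had 1. Of the 12 genes of the group with at least 2 peaks in a list, 3 were bound only after PDGF-AA.

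Endosome and Rab trafficking genes had 26 of 58 (44.8%, 32.7 to 57.5), again with the background inside the interval. Rab11fip5, an effector of the recycling endosome GTPase Rab11, had 3 coding peaks, of 66, 66 and 31 nt, and GA hexamers in both wider ones. Wdr81, which restrains PI3K activity on endosomes, had 3, and Vps18, a subunit of the HOPS and CORVET tethering complexes, Rbsn, the Rab5 effector rabenosyn, Ehd4 and Appl2 had 2 each. Appl1, the partner of Appl2 on early endosomes, had 1 peak in exon 1, and Rab5a, the GTPase of early endosomes, had 1 of 17 nt in its 5′ UTR. The sorting nexin genes Snx3, Snx5, Snx6 and Snx17 had 1 each.

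The receptor tyrosine kinase and adaptor genes had the lowest share, 4 of 40 (10.0%, 3.96 to 23.1), as 27 of them were bound in both lists. The 4 were Gab2, Gab1, Ptpn11 and Met. Gab2, a docking adaptor for PI3K, had 2 short intron peaks, of 25 and 28 nt, and Gab1 had 1 of 56 nt in exon 3 of 12. Ptpn11, the phosphatase SHP2 that binds Gab1, had 1 of 44 nt in exon 13 of 16. None of these held a GA hexamer. The MAP kinase group had 13 of 40 (32.5%, 20.1 to 48.0), close to the background, with Map3k12 (3 coding peaks), the phosphatase gene Dusp10, and the kinase genes Mapk7 and Mapk8 among them (2 each).

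SR proteins and their kinases were bound in both lists for the most part (32 of 37), and 4 were bound only after PDGF-AA (10.8%, 4.29 to 24.7). These were Srsf9, with 75 nt in exon 1, U2surp, with 66 nt and 3 GA hexamers in exon 16, Tra2b, with 50 nt in exon 7 of 9, and Srrm4. None had more than 1 peak. Spliceosome, hnRNP and RNA helicase genes had 18 of 65 (27.7%, 18.3 to 39.6), but 13 of these 18 had at least 2 peaks, against 410 of the 1783 genes in all. Hnrnpul1 (170 nt) had peaks of 77 and 93 nt in exons 3 and 2, and Prpf8, the scaffold of the spliceosome's catalytic core, had 60 and 73 nt in exons 15 and 37 of 42. Sf3b1 and Sf3a3 of the U2 particle, Prpf3 of the tri-snRNP, Hnrnpm, Elavl1, Ptbp2, Ddx42, Ddx27 and Dhx30 had 2 each, and Dhx29 had 3 in an intron, of 7, 19 and 25 nt, that were separated by single bases.

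Of 95 bound chromatin modifiers, 18 (18.9%, 12.3 to 28.0) were bound only after PDGF-AA and 71 (74.7%, 65.2 to 82.4) in both lists, against 50.4% of all bound genes in both lists. Many of them carried several peaks. At a minimum of 2 peaks in a list the share bound only after PDGF-AA was 13.7% (10 of 73), nearer to the 17.2% of all such genes. Chd3 (247 nt), Chd4 (233 nt) and Chd6 (266 nt) were all among them, with 3, 4 and 5 peaks that all lay in coding sequence. Chd3 had its 2 widest peaks, of 113 and 85 nt, in exons 3 and 2 of 40, and both held GA hexamers. Ep400, a remodeling ATPase of the NuA4 complex, had peaks of 119, 33 and 80 nt, and the last of these held a purine run of 39 nt. Kdm4a, a histone demethylase, and Setdb1, a histone methyltransferase, had 3, and Kmt2c, Brd9 and Smarcd3 had 2. Hdac1, Hdac2 and Hdac3 had 1 each.

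Several groups of cell identity, signaling and the matrix had low shares. Collagens and other matrix genes had 6 of 54 (11.1%, 5.19 to 22.2), led by Col11a2, a fibrillar collagen with 3 coding peaks in exons 60, 61 and 64 of 67, and by Lama5 with 2. Palate and craniofacial transcription factor genes had 6 of 42 (14.3%, 6.72 to 27.8), which were Trps1, Dlx2, Dlx1, Foxf2, Pax9 and Pbx2. Dlx2, a homeobox gene of the first pharyngeal arch, had 76 nt with 2 GA hexamers in its last exon. The TGF-beta and BMP group had 4 of 31 (12.9%, 5.13 to 28.9), which were Bmpr2, Smad5, Tgfbr1 and Chrd. The integrin and cadherin group had 5 of 27 (18.5%, 8.18 to 36.7), which were Itgb1, Itgb3, Itga6, Pcdh18 and Jup, and the Wnt group had 7 of 34 (20.6%, 10.3 to 36.8), with 2 peaks each in Axin1 and Csnk1e. The intervals of the integrin and Wnt groups include the background. As a check of the labelled cell type, of 16 mesenchyme markers, 14 were bound in either list and none only after PDGF-AA. No marker of epithelium, endothelium or muscle was bound in either list, 1 of 10 neuron or glia markers was bound in the untreated list alone, and Cd68, a marker of macrophages, was the only one of 9 blood or immune markers with a peak, which was a PDGF-AA peak of 62 nt.

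Immediate early genes, which growth factors induce without new protein synthesis, had 6 of 23 (26.1%, 12.5 to 46.5). Ier2 had coding peaks of 36 and 100 nt in its only exon. Jund, an AP-1 subunit with a single exon, had 59 and 53 nt. Fosl1, another AP-1 subunit, had 58 and 42 nt, in exons 3 and 4 of 4. Egr3, a zinc finger transcription factor, had 41 and 35 nt in exon 2 of 2, and the second held 3 GA hexamers. Jun had 1 coding peak of 60 nt and Dusp1, a phosphatase of MAP kinases, 1 of 53 nt in its 5′ UTR. Among the remaining groups, ubiquitin ligases and deubiquitinases had 25 of 74 (33.8%), nuclear pore and mRNA export genes 15 of 43 (34.9%), hedgehog and primary cilium genes 9 of 24 (37.5%), and kinesin, dynein and myosin motors 10 of 36 (27.8%), all with the background inside their intervals. Birc6, Otud4 and Rnf111 of the ubiquitin group had 2 coding peaks each, as had Xpo5, an exporter of pre-miRNAs. The cilium genes with the most covered nucleotides, Kif3b, Ift81 and Ift88, had 1 peak each, and Kif3b also stands in the motor group. Dync1li1, a light intermediate chain of dynein, had 3 coding peaks, and Myo9a and Kif21a had 2.

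**Figure D5:**
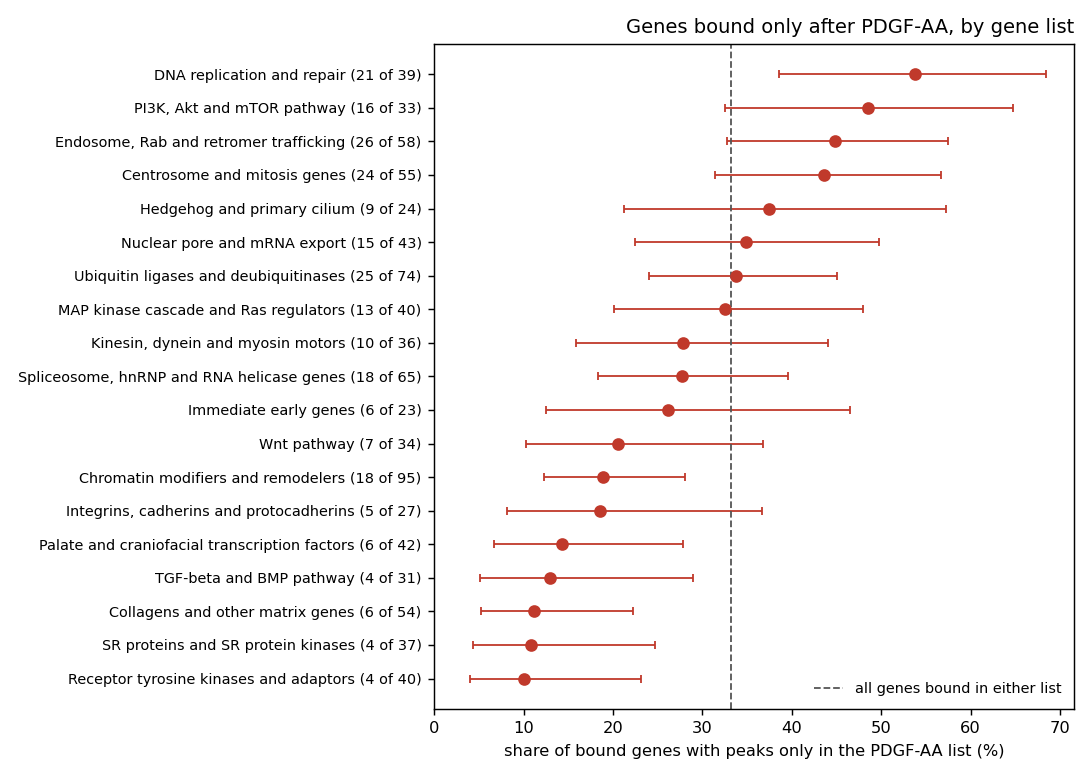
Share of the bound genes of each functional group (%) that had peaks only in the PDGF-AA list (points) with 95% Wilson intervals (lines, counting error only), beside the counts on the left. The dashed line is the share over all bound genes, 33.2%, and the groups run between 10.0% for receptor tyrosine kinases and adaptors and 53.8% for DNA replication and repair.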

How the data were processed

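Per the labels and the study's methods, the authors trimmed reads with cutadapt 1.18, collapsed them on unique molecular identifiers, removed matches to repetitive elements, aligned the rest with STAR 2.7.9, found peaks with omniCLIP and used RCAS for annotation. The submitters' processing notes name GRCm38 and GRCm39, and the methods GRCm39. The library used as background for peak calling was not given in the sources used here.

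The deposited full peak list of each condition was used. The lists of unique peaks were not used, nor were input and IgG libraries. Distinct intervals were counted, each with its first such gene, and placed on GRCm39 with the GENCODE M39 annotation (Python 3, pandas, pysam). Exon positions refer to the transcript with the longest coding sequence. Functions for regions, motifs, cover and intervals were tested on simulated data. Groups came from the sample titles. With 1 list per condition, no test was possible, and shares carry 95% Wilson intervals.

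Named are the 20 genes with the most peaks (ties by covered nucleotides, then name), the 5 peaks with the most GA hexamers, the 5 widest peaks and, in each functional group, genes with at least 2 peaks or, where fewer than 3 had these, up to 3 with the most covered nucleotides. Some items under this rule are not reported here. Other genes of the groups were named after their values were seen. Members and gene groups were chosen with earlier results of these data known. Alternatives covered gene assignment, width, merging, transcript choice, precedence of UTRs, window and comparison sequence.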

Additional observations from a re-analysis of the deposited data

How the results depend on the processing

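Requiring a width of at least 40 nt in the PDGF-AA list left 1180 peaks in 1036 genes. Using the gene in the caller's peak name gave 2335 peaks in 1822 genes, leaving out regions within 1000 nt of an untreated interval gave 2309 in 1781, and joining intervals within 50 nt gave 2190. With precedence for UTRs, given for any nucleotide in a UTR of any annotated transcript, the shares were 29.97% for coding sequence, 6.72% for the 5′ UTR and 54.7% for the 3′ UTR. With only the longest coding transcript they were 11.7% for introns, 3.01% for the 5′ UTR and 3.40% for the 3′ UTR, while coding sequence stayed at 81.8%. Against genome windows 100 to 300 nt away, which include introns, the density ratios were 8.85 for AGAAGA, 8.51 for GAAGAA, 8.98 for AAGAAG and 0.314 for CACACA. Averaged over all coding transcripts, the median position in the coding sequence was 55.4%. Among genes with at least 2 peaks in a list, 15.6% of the genes of the functional groups were bound only after PDGF-AA, and the number of such genes moved by over 1.5 times in 17 of 19 groups. Leaving out peaks with purine runs of at least 30 nt, an alternative chosen after seeing the data, gave 83.1% in coding sequence and 28.6% with a GA hexamer.

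Leaving out a library was not run, since each condition has 1 list. No paired analysis was possible because the lists carry no replicates. A stricter threshold of the caller was not run, as the lists hold no scores. Peak number limits the single-gene descriptions, since 1373 of the genes rest on 1 interval of unknown read depth, and the labels describe 1 PDGF-AA and 2 untreated Srsf3 libraries.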

Other observations

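Families of genes that share the start of a symbol, looked up after the values were seen, gave further shares to set beside the 33.2% of all bound genes. Of 100 bound genes whose symbol starts with Zfp, for zinc finger protein, 48 (48%, 95% Wilson interval 38.5 to 57.7) were bound only after PDGF-AA, 42 in both lists and 10 in the untreated list alone. They held 65 of the regions, and 55 of these were in coding sequence, 29 in the last coding exon and 9 in the only coding exon. Zinc finger arrays of this family are usually encoded in a single long last exon.

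Polr genes, which encode subunits of the RNA polymerases, had 9 of 16 (56.2%, 33.2 to 76.9), Tmem genes 17 of 35 (48.6%, 33.0 to 64.4) and Ccdc genes 14 of 28 (50%, 32.6 to 67.4). Proteasome subunit genes (Psm) had 3 of 16 (18.8%, 6.59 to 43.0), and 9 of those 16 were bound in the untreated list alone. Solute carriers (Slc) had 18 of 66 (27.3%, 18 to 39) and translation initiation factors (Eif) 9 of 31 (29.0%, 16.1 to 46.6). The other symbol starts looked up were Mrpl (4 of 7), Tbc1d (7 of 14), Trim (7 of 16), Ddx (7 of 20), Usp (10 of 32), Arhgef (3 of 12) and Arhgap (3 of 16). Except for Zfp, every interval reached or included the share of all bound genes.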
